A study of Mus musculus with 66 samples.

Results

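Day 0 was compared with days 3 and 6 after birth in whole mouse testis. The members are all arrays of these 3 days, 18 of the 66 arrays in the series, chosen by the day in their labels and not by any measured value. The tissue was whole testis from BL/6-129 mice, and total RNA was extracted with TRIzol. Each day had 2 numbered samples, both hybridised to 3 types of array, called A, B and C, so that every type held 2 arrays of day 0 and 4 arrays of days 3 and 6. The labels name no treatment, and age was the only labelled difference between the groups. They do not say whether the samples of a day came from separate animals or from pools. The p-values therefore measure only the spread between both samples of a day, pooled over all 11 days of the series. That spread may be technical.

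At birth the germ cells of the mouse testis are gonocytes, which lie in the middle of the seminiferous cords and are held in cell cycle arrest. In the days after birth they resume division, move to the basement membrane and become spermatogonia, some of which start to differentiate under retinoic acid. Sertoli cells are still dividing at this age and will later seal the epithelium with tight junctions. The steroid-producing Leydig cells of the newborn are fetal Leydig cells, which are followed later by an adult generation.

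The values are array signals on a linear scale, with a common mean signal for all arrays. A signal of 50 on at least 2 of the 22 arrays of a type was required, 13462 genes were tested, and changes are differences in log2(signal + 16), given with their standard error (SE). A gene was called at a Benjamini-Hochberg adjusted p under 0.05 in limma with a change of at least 2-fold. In whole tissue, fewer cells of a type and less RNA per cell cannot be told apart.

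The number of arrays limits the precision, and some arrays stood apart. The correlation between both samples of a day was lowest at day 0, with r of 0.931 on type A, 0.863 on type B and 0.834 on type C, against 0.836 to 0.962 on days 3 and 6. The signal of the middle actin control probe set separated sample 1 from sample 2 on every type and day, in opposite directions on type A and on types B and C. On day 0 it was 505.4 in sample 1 and 4102.6 in sample 2 on type A. It was 8385.2 and 1421 on type B, and 15991.5 and 2411.8 on type C. The ratio of 3′ to 5′ actin signal ran from 1.25 to 2.01 over the 18 arrays. The differences between sample 1 and sample 2 of day 0 were correlated over genes present on both types at r = -0.327 between types A and B and at r = 0.26 between types B and C. Whether sample 1 on type A is the RNA that is sample 1 on types B and C was not tested.

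Between day 0 and days 3 and 6 together, 37 of 13462 genes were called (0.275%), of which 14 were higher (0.104%) and 23 were lower (0.171%) after birth. The largest rises were in Qpct, Wfdc3, Shisa8, Ahcyl2 and Stra8, and the largest falls in the chemokine gene Ccl17, the proteoglycan gene Cspg4, Ankrd63, Pgbd5, Svep1 and the steroidogenic enzyme gene Cyp11a1. With a pseudocount of 1 the split was 19 higher and 11 lower. An unadjusted p under 0.05 was reached by 1272 genes (9.45%), and the median change of all genes was 0.01. All 4 later samples lay above both day 0 samples for 13 of the 14 rises, against 8.25% of all genes, and below both for 22 of the 23 falls, against 7.55% of all genes. The count depended on the arrays that entered: it was 16 without the day 0 arrays of lower actin signal, 242 without those of higher actin signal, 70 or 144 without 1 day 0 sample and 19 without day 6 sample 1. A fit on the 6 arrays of these days alone, with 3 residual degrees of freedom, called 0 genes.

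**Figure D1:**
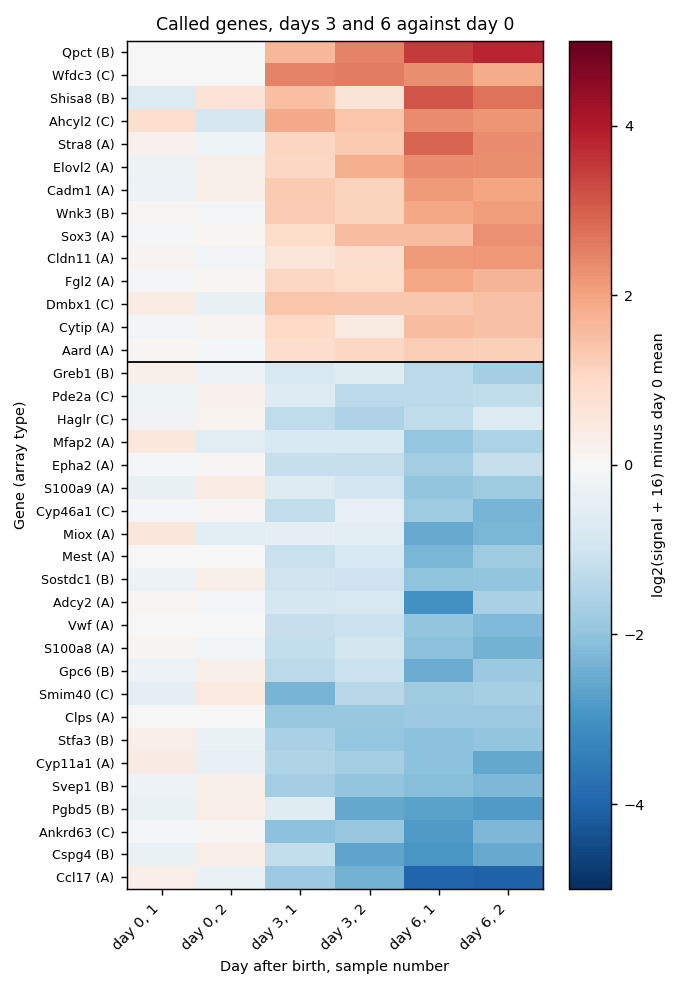
Each row is 1 of the 37 genes called between day 0 and days 3 and 6, with its array type in brackets, and each column is 1 sample. Colour is log2(signal + 16) minus the day 0 mean of the gene, red for higher and blue for lower. Of the 14 rises above the line, Shisa8 had a later sample within the day 0 range, and of the 23 falls below it, Miox did.

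Among the called genes, 4 rises (Qpct, Stra8, Wnk3 and Cldn11) and 3 falls (Ccl17, Mest and Stfa3) kept their call both without the lower-actin and without the higher-actin day 0 arrays. Whichever 1 sample was left out, the calls of Qpct, Wfdc3, Stra8, Cadm1, Wnk3, Sox3, Cldn11, Ccl17, Cyp11a1, Svep1, Clps, Vwf and Mest held, 13 of the 37, and the others lost theirs in at least 1 such setting. The day 3 mean lay between the means of day 0 and day 6 for 33 of the 37. The genes were chosen on the same arrays, and the share over all genes was not counted. The promoters of Stra8, Cyp11a1 and Ccl17 are shown because these genes were called members of the differentiating spermatogonia and steroidogenic Leydig cell lists, and a half-site of nuclear receptors (AGGTCA, or TGACCT on the other strand) was sought in them. The genes and the motif were chosen after their values were seen. The windows reach from 250 bases before to 50 bases after an annotated start in RefSeq (GRCm38.p6), with the half-site in capitals.
Stra8, chr6:34920698-34920997, plus strand: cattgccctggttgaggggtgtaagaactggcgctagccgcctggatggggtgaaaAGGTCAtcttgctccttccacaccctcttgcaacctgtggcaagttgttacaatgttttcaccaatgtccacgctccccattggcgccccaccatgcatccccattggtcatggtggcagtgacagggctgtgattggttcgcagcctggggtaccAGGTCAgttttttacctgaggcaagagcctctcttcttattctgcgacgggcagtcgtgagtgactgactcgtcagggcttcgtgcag
Cyp11a1, chr9:58014702-58015001, plus strand: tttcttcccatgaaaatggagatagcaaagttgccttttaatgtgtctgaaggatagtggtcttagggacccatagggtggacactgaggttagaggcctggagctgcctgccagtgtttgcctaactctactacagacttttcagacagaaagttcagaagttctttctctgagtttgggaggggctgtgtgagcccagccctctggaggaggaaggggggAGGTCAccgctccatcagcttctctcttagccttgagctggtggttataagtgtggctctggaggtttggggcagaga
Ccl17, chr8:94810203-94810502, plus strand: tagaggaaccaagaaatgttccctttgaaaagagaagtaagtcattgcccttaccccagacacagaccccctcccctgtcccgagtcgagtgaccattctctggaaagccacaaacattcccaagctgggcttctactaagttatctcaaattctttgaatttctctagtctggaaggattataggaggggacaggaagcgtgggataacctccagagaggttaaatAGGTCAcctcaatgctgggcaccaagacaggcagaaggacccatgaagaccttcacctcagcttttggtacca
The Stra8 window held 2 half-sites, beginning 194 and 38 bases before the start. The Cyp11a1 window shown held 1, beginning 28 bases before the start, and the window of the other annotated Cyp11a1 start, chr9:57997774-57998073, held 0. The Ccl17 window held 1, beginning 23 bases before the start. Of all 32851 windows, 16.3% held a half-site. Counting a gene by any of its windows, the share was 18.1% of 27025 genes, and it was 5 of the 10 called rises and 6 of the 17 called falls that had a window. A match is a description of the letters and not a binding site.

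Of 14 tested genes of differentiating spermatogonia, 1 was called higher on days 3 and 6, 12 were higher on average (7 higher and 0 lower at an unadjusted p under 0.05) and the median change was 0.65 against 0.01 for all genes. Of all 13462 genes, 51.1% were higher on average, which is the share to set beside such counts. All lists and members were chosen with earlier results of these data known, so list counts and medians are not independent support. Stra8, which germ cells need for retinoic acid-driven entry into meiosis, had a signal of 11.8 and 5 on day 0, 34.8 and 43.2 on day 3, and 167.9 and 109.5 on day 6. Both day 0 samples lay at the bottom of the scale, and the days did not overlap. Stra8 rose by 1.92 ± 0.24 (limma, adjusted p = 0.00132; n = 2 and 4), and it was not called with a pseudocount of 64 or a floor of 32. Against day 0 alone it changed by 1.18 by day 3 (adjusted p = 0.316) and by 2.65 ± 0.27 by day 6 (adjusted p = 0.000102).

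At day 6, 98 genes were called against day 0 (0.728%), with 54 higher (0.401%) and 44 lower (0.327%), and 4 of the 14 genes of differentiating spermatogonia were among the higher ones. With each array scaled to its median instead, the split was 25 higher and 51 lower. The 4 were Stra8, Uba1y, Crabp1 and Usp26, and the list's median change was 1.21 against 0.02 for all genes. Uba1y, the Y-linked copy of the ubiquitin-activating enzyme, had a signal of 52.7 and 46.6 on day 0, 77.8 and 84.5 on day 3, and 156.3 and 161.5 on day 6, and both samples of each day lay apart from those of the other days. It rose by 1.42 by day 6 (adjusted p = 0.00188), and its change over both later days, 0.99 (adjusted p = 0.015), missed the fold minimum. The cellular retinoic acid-binding protein gene Crabp1 had a signal of 54.5 and 33.6 on day 0, 56.8 and 49.9 on day 3, and 131.5 and 179.4 on day 6, so that its day 3 samples were close to day 0. It rose by 1.52 by day 6 (adjusted p = 0.0166). The deubiquitinase gene Usp26 rose by 1.36 by day 6 (adjusted p = 0.0298), from 205.7 and 237.2 to 515.1 and 682.6. Kit, the stem cell factor receptor of differentiating spermatogonia, had a signal of 28.1 and 57.6 on day 0, 23.6 and 43 on day 3, and 95.2 and 119 on day 6. Both day 6 samples lay above the others, but Kit was not called (1.1 ± 0.34, adjusted p = 0.179).

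Of 16 pan germ cell genes, 0 were called over both days (limma; 2 higher and 1 lower at an unadjusted p under 0.05), with a median of 0.27, and 1 at day 6. Ddx4, the RNA helicase that marks all germ cells, had a signal of 73 and 98.4 on day 0, 143.2 and 115.7 on day 3, and 305.9 and 281.3 on day 6. It rose by 1.62 ± 0.3 by day 6 (adjusted p = 0.0131), while its change by day 3 was 0.52 (adjusted p = 0.937). Dazl, an RNA-binding protein gene of the germ line, had a signal of 70.7 and 312.2 on day 0, 122.3 and 441.9 on day 3, and 443.3 and 1386.3 on day 6. In Dazl sample 2 lay above sample 1 on every day, the later samples overlapped those of day 0, and the gene was not called (1.41 ± 0.75, adjusted p = 0.584). Within sample 1 and within sample 2 the Dazl signal rose from day to day. The main fit held no term for sample number, so that its SE includes the gap between the samples.

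The gonocyte and undifferentiated spermatogonia list had 0 of 21 genes called over both days (limma; 5 higher and 3 lower at an unadjusted p under 0.05), with a median of 0.14. At day 6, 1 of the 21 was called. This was Uchl1, a ubiquitin hydrolase of gonocytes and spermatogonia, with 390.6 and 250.7 on day 0, 492.8 and 370.7 on day 3, and 908.4 and 928.8 on day 6. It rose by 1.5 ± 0.27 by day 6 (adjusted p = 0.00937), and both day 6 samples lay above all others. Zbtb16, a transcription factor of undifferentiated spermatogonia, had 283.7 and 85.1 on day 0, 384.6 and 168.8 on day 3, and 632.6 and 413.1 on day 6, and was not called (1.12 ± 0.45, adjusted p = 0.437). Sample 1 of Zbtb16 lay above sample 2 on every day, and within each sample number its signal rose from day to day. The pluripotency factor gene Pou5f1 had 16.1 and 105.2 on day 0, 18.9 and 19.9 on day 3, and 29.7 and 65.9 on day 6. Its day 0 samples spanned the whole range, and its change was -0.42 ± 0.5 (adjusted p = 0.849). The day means of Pou5f1 stayed at 19.4 to 60.65 over the whole series, so that whether this probe set follows the gene is not known. Gfra1, Id4 and Dnmt3l, a receptor for GDNF, an inhibitor of DNA binding and a cofactor of DNA methylation in gonocytes, had changes of 0.04, 0.05 and -0.17 with overlapping groups. The Dnmt3l probe set kept day means of 463.2 to 573.2 over the whole series, so that whether it follows the gene is not known.

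**Figure D2:**
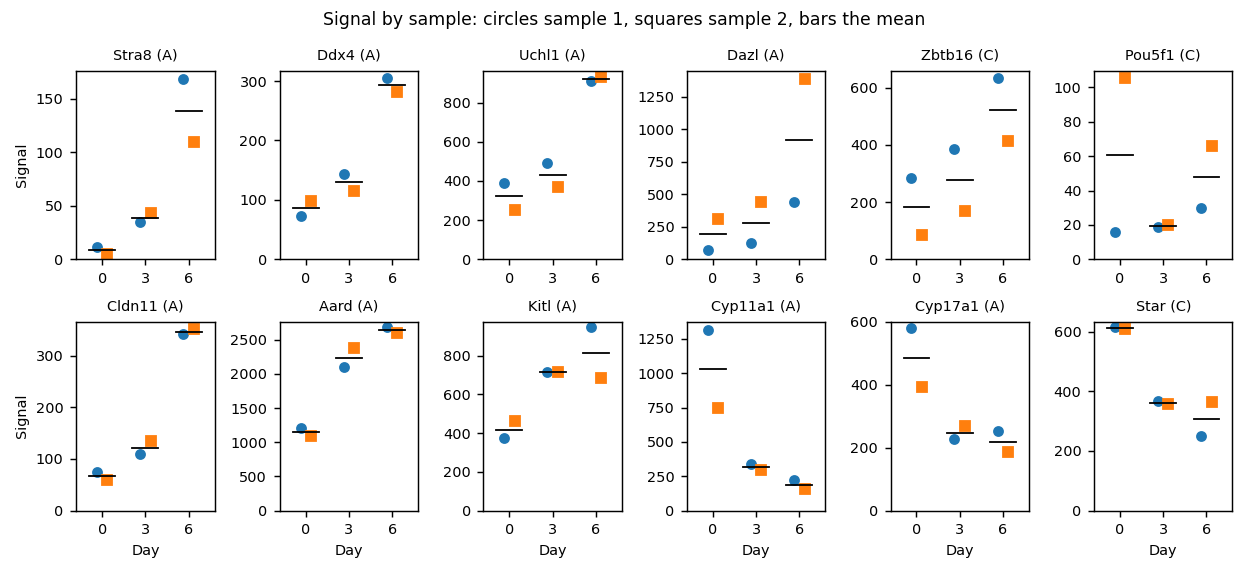
Signal (vertical axis, linear from 0) by day after birth (horizontal axis) for 12 genes, with circles for sample 1, squares for sample 2 and bars for the mean of both. Stra8, Ddx4, Uchl1, Cldn11 and Aard were highest on day 6, Cyp11a1, Cyp17a1 and Star were highest on day 0, and Dazl, Zbtb16 and Pou5f1 had wide gaps between the samples of a day.

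Genes of cell division were described because gonocytes leave arrest in these days. Of 47 genes of G2, mitosis and the spindle, 37 were higher on average and 0 were called (limma; 7 higher and 0 lower at an unadjusted p under 0.05), with a median of 0.21 over both days, 0.27 on day 3 and 0.13 on day 6. With each array scaled to its median, the median over both days was 0.08. On day 3, 42 of the 47 were higher than on day 0 on average, against 50% of all genes. Cenpf, a kinetochore protein gene named as the highest member, had a change of 0.92 (adjusted p = 0.356), with 322 and 188.3 on day 0 and 391.1 to 743.1 later. All 4 later Cenpf samples lay above both day 0 samples. The proliferation marker Mki67 had 254.9 and 421.9 on day 0, 414.1 and 401.4 on day 3, and 286.4 and 271.1 on day 6. The groups overlapped, and its change was 0.04 ± 0.28 (adjusted p = 0.986). The S phase and DNA replication list had 0 of 38 genes called (limma; 2 higher and 0 lower at an unadjusted p under 0.05) with a median of 0.07, and the list of cell cycle inhibitors and G1 genes had 0 of 23 (1 higher and 2 lower unadjusted) with a median of 0.15. Pcna, the sliding clamp of DNA replication, had a change of 0.1 ± 0.2. Whole-testis signals include the dividing Sertoli cells and interstitial cells, and their part in these values was not tested.

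Of 34 Sertoli cell genes, 2 were called higher and 0 lower (6 higher and 4 lower at an unadjusted p under 0.05), with a median of 0.09. The changes ran from -1.22 in the keratin gene Krt8 (adjusted p = 0.229) to 1.7 in the cystatin gene Cst12 (adjusted p = 0.214). Cldn11, the claudin of Sertoli cell tight junctions, had a signal of 74.6 and 58.5 on day 0, 108.7 and 133.8 on day 3, and 341.3 and 350.8 on day 6. Each day lay above the one before it without overlap. Cldn11 rose by 1.44 ± 0.21 (adjusted p = 0.00386) and by 2.14 ± 0.24 by day 6 (adjusted p = 0.000232). Aard had 1204.4 and 1084.1 on day 0, 2101.5 and 2377.4 on day 3, and 2683.1 and 2604.7 on day 6, and rose by 1.08 ± 0.18 (adjusted p = 0.0129), a call that held in 4 of the 6 settings with 1 sample left out and was lost with each array scaled to its median. Kitl, the ligand of Kit made by Sertoli cells, had 374.3 and 462.4 on day 0 and 685.2 to 946.2 later, with no overlap. It was not called (0.84 ± 0.41, adjusted p = 0.538). Anti-Müllerian hormone, Amh, had 72.3 and 157.6 on day 0, 42.5 and 222.7 on day 3, and 22.9 and 88.1 on day 6, a change of -0.51 ± 0.45 (adjusted p = 0.771). In Amh, as in the inhibin subunit gene Inhba and the cyclin gene Ccnd2, sample 2 was above sample 1 on every day on type A, the order of the actin signal there. Sox9, Fshr, Gdnf and Clu, which encode a Sertoli cell transcription factor, the follicle-stimulating hormone receptor, a growth factor and clusterin, had changes of -0.18, 0.28, -0.03 and 0.38 and were not called.

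Of 25 steroidogenic Leydig cell genes, 2 were called lower and 0 higher on days 3 and 6, 20 were lower on average and the median was -0.53 against 0.01 for all genes. At an unadjusted p under 0.05, 11 of the 25 were lower and 2 were higher. Ccl17 was put on this list with its fall in these data known, and without it 1 of 24 was called lower, 19 were lower on average and the median was -0.5. Ccl17, a chemokine, had a signal of 474.8 and 288.8 on day 0, 94.4 and 59.9 on day 3, and 8.8 and 7.4 on day 6. The 3 days did not overlap, and Ccl17 had the smallest adjusted p of all genes, with a change of -3.04 ± 0.26 (adjusted p = 1.67e-05). The changes were -2.08 by day 3 (adjusted p = 0.0288) and -4.01 by day 6 (adjusted p = 2.2e-06). Cyp11a1, the enzyme that cleaves the side chain of cholesterol in the opening step of steroid synthesis, had 1315.8 and 749.7 on day 0, 339.4 and 298.7 on day 3, and 225.1 and 154 on day 6. All later samples lay below day 0, and it fell by 1.96 ± 0.26 on the log2 scale (adjusted p = 0.00172).

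Other enzymes of the pathway had smaller changes that did not pass the test. Cyp17a1, which makes androgen precursors, had 580.4 and 391.6 on day 0 and 184.9 to 267.8 later, a change of -1 ± 0.27 (adjusted p = 0.192). Star, which carries cholesterol into mitochondria, had 615.4 and 608.3 on day 0, 366.4 and 358.2 on day 3, and 249.4 and 364.3 on day 6, a change of -0.86 ± 0.45 (adjusted p = 0.58). In both genes the later samples were all below day 0. Hsd3b1 had 1042.1 and 668.7 on day 0, 687.1 and 570.7 on day 3, and 479.3 and 248.6 on day 6, and was not called (-0.82 ± 0.33, adjusted p = 0.44). Insl3, the hormone of testis descent, had a low signal of 29.1 to 56.1 in all 6 samples and a change of -0.03. Its day means stayed at 37.4 to 62.6 up to day 56, so that whether this probe set follows the gene is not known. The adult Leydig cell list had 0 of 9 genes called (limma; 2 higher and 0 lower at an unadjusted p under 0.05), with a median of -0.25, or of 0.13 where the signal filter used the 6 arrays of these days.

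Vessels and matrix lie in the tissue between the cords. Of 22 genes of endothelium and pericytes, 2 were called lower, 20 were lower on average and the median was -0.49. Cspg4, the NG2 proteoglycan of pericytes, had 183.8 and 294.5 on day 0, 88.9 and 23.6 on day 3, and 17.2 and 27.6 on day 6, and fell by 2.33 ± 0.35 on the log2 scale (adjusted p = 0.00404). Vwf, von Willebrand factor of endothelium, had 97.1 and 98.6 on day 0, 35 and 38.4 on day 3, and 12.9 and 8.5 on day 6, and fell by 1.6 ± 0.25 (adjusted p = 0.00496). In both genes every later sample lay below both day 0 samples. Pecam1, an adhesion molecule of endothelium, had a change of -0.05, the receptor gene Kdr of -0.13 and Plvap of 0.39, and these were not called. Of 49 extracellular matrix genes, 1 was called lower, 40 were lower on average and the median was -0.29. This was Mfap2, a microfibril protein, with 1783.5 and 866.6 on day 0, 734.7 and 723.9 on day 3, and 314.5 and 403.4 on day 6, which fell by 1.26 ± 0.23 (adjusted p = 0.0209). Its call held in 2 of the 6 settings with 1 sample left out, its change was -0.74 without day 0 sample 1 (adjusted p = 0.139), and its adjusted p was 0.0506 with each array scaled to its median. The matrix genes Matn2 and Col15a1 were called lower at day 6 as well, at -1.15 and -1.39.

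Of 28 imprinted and fetal growth genes, 1 was called lower, 19 were lower on average and the median was -0.23. The paternally expressed gene Mest had 743.2 and 705.7 on day 0, 326.8 and 425.7 on day 3, and 137.5 and 202.3 on day 6. The 3 days did not overlap, and Mest fell by 1.47 ± 0.2 (adjusted p = 0.00172). Dlk1 had 4365.4 and 3637.2 on day 0 and 1431.6 to 3108.7 later, and the growth factor gene Igf2 had 3929.5 and 3491.4 on day 0 and 1648.8 to 3093.7 later. All later samples of both genes lay below day 0, but neither was called (-0.9 ± 0.3, adjusted p = 0.314, and -0.68 ± 0.27, adjusted p = 0.438). Plagl1, an imprinted zinc finger gene, was called at day 6, at -1.19 (adjusted p = 0.0213), with 11217.7 and 9846.9 on day 0 and 4368.1 and 4828.3 on day 6.

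**Figure D3:**
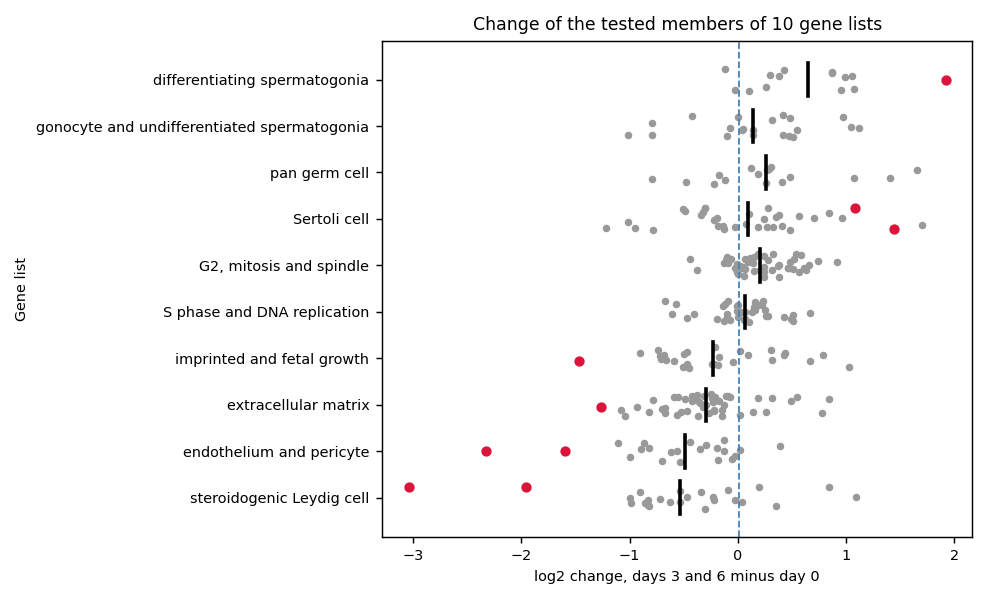
Each point is 1 tested gene of the list named on the vertical axis, placed by its log2 change on days 3 and 6 against day 0, with called genes in red, the list's median as a black bar and the median of all 13462 genes as a dashed line. The median was 0.65 for differentiating spermatogonia, -0.49 for endothelium and pericytes and -0.53 for steroidogenic Leydig cells.

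Further rises were of genes outside these lists. Qpct, an enzyme that cyclises N-terminal glutamine, had a signal of 16.9 and 15.3 on day 0, 86.7 and 163.1 on day 3, and 344.9 and 436.4 on day 6, and had the largest rise of the called genes, 2.87 ± 0.32 (adjusted p = 0.0004). The X-linked kinase gene Wnk3 had 82 and 74.2 on day 0, 212 and 189.4 on day 3, and 339 and 389.3 on day 6, and rose by 1.61 ± 0.21 (adjusted p = 0.00171). In both, the 3 days did not overlap. Sox3, an X-linked transcription factor gene of early spermatogonia, had 35.1 and 42.7 on day 0, 86.7 and 144.2 on day 3, and 141.9 and 253.4 on day 6, and rose by 1.57 ± 0.23 (adjusted p = 0.00415). Cadm1, a cell adhesion molecule of spermatogenic cells, had 154.1 and 244.4 on day 0 and 442.2 to 905.4 later, and rose by 1.63 ± 0.25 (adjusted p = 0.00443). Elovl2, which elongates polyunsaturated fatty acids, had 42.3 and 68.7 on day 0 and 128.1 to 349.5 later, and rose by 1.87 ± 0.3 (adjusted p = 0.00849). For these 3 genes all later samples lay above day 0. Elovl2 was not called without day 0 sample 1. Fgl2, Cytip and Dmbx1 rose by 1.39, 1.12 and 1.39. With 1 sample left out their calls held in 4, 2 and 1 of 6 settings, and that of Dmbx1 was also lost with each array scaled to its median (adjusted p = 0.0883).

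Probe sets of the same gene did not always move together. Wfdc3 rose by 2.3 ± 0.34 (adjusted p = 0.00415) on its probe set on type C, with 36.4 and 38.9 on day 0 and 176.9 to 297.7 later, whereas its probe set on type B read 63.5 to 88.6 in all 6 samples. Ahcyl2 rose by 1.97 ± 0.34 (adjusted p = 0.014) on type C. Its probe sets on type B, which were less bright over the series, had changes of 0 and 0.58. Elovl2, reported from type A, had a change of 0.55 on its probe set on type B. Cytip had changes of 0.47 and 0.03 on its other probe sets, on types A and B. Sox3 had a change of 0.76 on its other probe set on type A, where the day 3 samples overlapped day 0. The call of Sox3 was lost with the mean of all probe sets. In all, 9 called genes had 13 other probe sets, and 11 of these changed in the same direction as the one reported.

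Further falls included genes of inflammatory cells, matrix and signalling. The granulocyte alarmin gene S100a8 had 240.9 and 192 on day 0, 83.2 and 107 on day 3, and 39.2 and 29.4 on day 6, and fell by 1.64 ± 0.28 (adjusted p = 0.0129). Its partner S100a9 fell by 1.34 ± 0.27 (adjusted p = 0.0486), and Stfa3, a cysteine protease inhibitor gene, by 1.9 ± 0.3 (adjusted p = 0.00498). S100a9 was not called with the replicate number as a block, and its call held in 1 of the 6 settings with 1 sample left out. S100a9 was named after its values were seen. The macrophage list had 0 of 17 genes called (limma; 0 higher and 1 lower at an unadjusted p under 0.05) and a median of -0.01. Svep1, an extracellular adhesion protein gene, had 134.8 and 205.9 on day 0, 38.4 and 30.5 on day 3, and 25.3 and 22.6 on day 6, and fell by 2.03 ± 0.26 (adjusted p = 0.00158). Clps, pancreatic colipase, had 115.4 and 111.7 on day 0 and 18.9 to 20.8 later, and fell by 1.86 ± 0.27 (adjusted p = 0.00386). Its later samples were nearly equal and as low as its day means of 16.45 to 39.6 from day 8 to day 56. At this level a further fall between days 3 and 6 might not be seen. Ankrd63, Pgbd5, Smim40, the glypican gene Gpc6 and the adenylyl cyclase gene Adcy2 fell, with changes of -2.25, -2.16, -1.78, -1.69 and -1.58. The call of Pgbd5 held in 5 of the 6 settings with 1 sample left out, and those of the other 4 in 2 each. In Pgbd5 day 3 sample 1 read 258.4, near day 0, and the other later samples 43.5 to 55.9.

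By day 3 alone, 4 genes were called against day 0 (0.0297%), 1 higher (0.00743%) and 3 lower (0.0223%), and 740 reached an unadjusted p under 0.05. Wfdc3 was the higher gene (2.52, adjusted p = 0.0407), and Ccl17, Svep1 and Clps were lower, with changes of -2.08, -1.86 and -1.89. With each array scaled to its median, 0 were higher and 3 were lower. This count was 0 without day 3 sample 2 or either day 6 sample, which enter through the shared spread, and 30 or 8 without day 0 sample 1 or 2. It was 31 without day 3 sample 1. The day 3 and day 6 comparisons share their day 0 arrays.

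Of the 37 genes called over both days, 35 were also called by day 6, whose arrays are part of the comparison that chose them. Among the other day 6 calls, the following were named after their values were seen. The metallothionein gene Mt2 rose by 1.69 (adjusted p = 0.00682), with 745.5 and 311.5 on day 0 and 1723.6 and 1471.2 on day 6. Syce1, a component of the synaptonemal complex, rose by 1.37 (adjusted p = 0.00682), and Hdac6, a deacetylase of tubulin, by 1.09 (adjusted p = 0.00636). Cxcl12, a chemokine that attracts germ cells and blood progenitors, fell by 1.54 on the log2 scale (adjusted p = 0.0103), with 841.3 and 699.7 on day 0, 466.5 and 547.2 on day 3, and 288.9 and 222 on day 6. Pnmt, which makes adrenaline, fell by 1.89 (adjusted p = 0.00465), and the desmosome gene Dsp had a change of -1.73 (adjusted p = 0.00276). The count at day 6 was 28 without day 6 sample 1, 40 without day 6 sample 2, 174 or 148 without day 0 sample 1 or 2, 53 without the lower-actin day 0 arrays and 343 without the higher-actin ones.

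Between day 3 and day 6, 0 genes were called in limma (0% of genes), 753 reached an unadjusted p under 0.05 and the smallest adjusted p was 0.0532. With the replicate number as a block, 10 genes were called, 6 higher and 4 lower at day 6, which are named here after their values were seen. The largest change was in Rbm28, a nucleolar RNA-binding protein gene, with 1464.6 and 1258.2 on day 0, 394.2 and 243.1 on day 3, and 3563.1 and 2155 on day 6. Its day 3 samples lay below both other days, and it changed by 3.1 ± 0.36 from day 3 to day 6 (adjusted p = 0.0025 with the block, 0.0574 without it). Stra8, Cldn11, Hdac6, Radx and the clone-named 1700011M02Rik were the other genes higher at day 6, and Ccl17, Miox, Cbln1 and Dsp were lower. Without day 3 sample 1 the count was 42, and it was 9 and 12 without day 0 sample 1 and 2 and 5 without day 6 sample 2.

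Milk protein transcripts were read on 1 array of these days. On the type A array of day 6 sample 1, Wap, the whey acidic protein, read 1264.4 and the casein Csn1s1 read 849.7. Csn2 read 284.2, Csn1s2a 255.5, Csn1s2b 204.2, Csn3 160.4 and Glycam1 90.1 on that array, and Lalba, α-lactalbumin, 10.4. On the other 5 type A arrays of days 0, 3 and 6, Wap read 6.2 to 11.1 and Csn1s1 2.9 to 16, so that this array stood alone. The summed signal of the 8 milk protein genes was 3118.9 on it and 67.1 to 77.3 on the other 5. Over all 21 other type A arrays of the series, the highest signal of any of the 8 genes was 81.8. On type B the casein Csn1s2a read 28 in day 6 sample 1 and 39.2 in sample 2. The other 16 genes of the milk and mammary gland list had 20 probe sets on type A, of which 4 were highest on this array and 9 lay above day 6 sample 2. The epithelial mucin gene Muc1 read 54.1 there and 18.7 to 44.9 on the other 5, and the lipase gene Cel 173.3 and 98.9 to 142.5. The mammary epithelial genes Krt14, Krt5, Elf5 and Btn1a1 read 4.5, 8.9, 2.5 and 7.1 on it and were not highest there. Wap and Csn1s1 were not called (day 6 changes of 2.69 ± 1.04 and 2.6 ± 0.99, adjusted p = 0.33 and 0.322). The milk and mammary gland list had 0 of 15 genes called over both days (limma; 1 higher and 1 lower at an unadjusted p under 0.05) and 1 at day 6. This was Wfdc18, with 169.5 and 51.6 on day 6 and 7.7 to 21.8 before (2.02, adjusted p = 0.0333). The day means of Wfdc18 were 22.25 to 49.85 from day 8 to day 56. Without this array 32 genes were called over both days and 69 at day 6, all of these 69 among the 98. The source of the milk transcripts was not tested.

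Spermatid transcripts, from haploid cells that are not yet formed in the first week, were read on 2 other type A arrays. Prm1, a protamine of sperm chromatin, read 128.6 and 98.3 on day 0, 540.1 and 5.5 on day 3, and 18 and 759 on day 6. Ldhc, the lactate dehydrogenase of spermatocytes and spermatids, read 3.9 and 3 on day 0, 184.6 and 2.1 on day 3, and 1.6 and 60.6 on day 6. Tnp2, a transition protein, read 95 and 143.4 on the same 2 arrays and 19.1 to 35.2 on the other 4. So day 3 sample 1 and day 6 sample 2 were high on type A, and their partners of the same day were not. The summed signal of 27 spermatid genes on type A was 1736.1 and 2242.3 on these arrays and 831.9 to 1035.2 on the other 4. In day 6 sample 2, 18 of the 34 spermatid probe sets were highest of the 6 arrays and 27 lay above sample 1 of that day. In day 3 sample 1, 3 of the 34 were highest and 18 lay above sample 2 of that day while 16 lay below it, among them Smcp with 10.6 against 46.2 and Oaz3 with 11.4 against 23.9. On day 56 the mean signal of Prm1 was 16180 and that of Ldhc 10330. On type B the spermatid sum was highest in day 6 sample 2, at 439.7 against 214.8 to 300.2 on the other 5 arrays. On type C it was 1362.4 to 2322.1, highest in day 3 sample 2. There the kinase gene Tssk3 read 161.1 on 1 of its probe sets, against 4 to 24.4 on the other 5 arrays. Of 44 spermatid genes, 0 were called over both days or on day 6 (limma; 4 higher and 0 lower at an unadjusted p under 0.05 in either comparison). Without the type A array of day 3 sample 1, 30 genes were called over both days, and 43 without that of day 6 sample 2. The source of these transcripts was not tested.

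**Figure D4:**
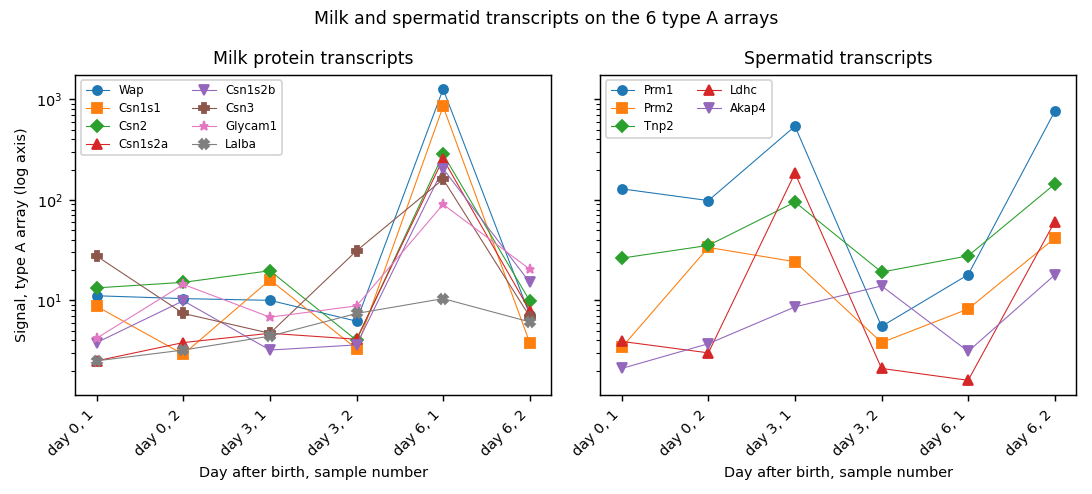
Signal on the 6 type A arrays (vertical log axis) of milk protein transcripts (left) and spermatid transcripts (right), by day and sample number, with the brightest probe set of each gene and lines that only link points of 1 gene. The milk transcripts are highest on day 6 sample 1, where Wap reads 1264.4 and Lalba 10.4, while Prm1 and Ldhc peak on day 3 sample 1 and day 6 sample 2.

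Markers of blood and of other tissues were compared as well. Hba-a1, adult α-globin, read 8276.7 and 4595.3 on day 0, 4435.4 and 4028.6 on day 3, and 2098.8 and 2187.6 on day 6. All later samples lay below day 0, and the gene was not called (-1.03 ± 0.32, adjusted p = 0.295). The erythroid list had 0 of 15 genes called (limma; 2 higher and 4 lower at an unadjusted p under 0.05), with a median of -0.04. The skeletal muscle list had 0 of 14 called (1 and 1 unadjusted), the adipocyte and brown fat list 0 of 12 (0 and 1), the nerve and Schwann cell list 0 of 12 (0 and 1), the liver and serum list 0 of 5 (0 and 1) and the epididymis and mesonephric duct list 0 of 3 (0 and 0), with medians between -0.09 and 0.11. The peritubular myoid and smooth muscle list had 0 of 16 (1 and 0) and a median of 0.03.

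The remaining lists covered pathways. The list of early meiotic prophase had 0 of 18 called over both days (limma; 2 higher and 0 lower at an unadjusted p under 0.05) and 1 at day 6, and the DNA methylation and piRNA list 0 of 20 (2 and 0) and 1 at day 6, which was Ddx4. Hells, a chromatin remodeller needed for DNA methylation and the highest member of that list, read 101.2 and 107 on day 0, 290.7 and 183 on day 3, and 516 and 330 on day 6, a change of 1.44 (adjusted p = 0.214). All later Hells samples lay above day 0. The retinoid list had 1 of 18 called, Stra8, with a median of 0. The hedgehog, Notch and Wnt list had 0 of 35 called (0 higher and 3 lower unadjusted) with a median of -0.22. Its lowest member, named for that, was Gli2, a transcription factor of hedgehog signalling, with 318.5 and 486.9 on day 0 and 100.4 to 238.9 later (-1.44, adjusted p = 0.195). The interferon and antigen presentation list had 0 of 21 (0 and 4), the immediate-early and stress list 0 of 30 (3 and 4), the hypoxia and glycolysis list 0 of 28 (3 and 2), the cholesterol synthesis list 0 of 20 (1 and 1), the cytosolic ribosome list 0 of 14 (0 and 0) and the mitochondrial respiration list 0 of 27 (1 and 0).

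The called genes were followed over the 11 days of the series, from day 0 to day 56, as a description with no test. They were chosen on the same day 0 arrays, so that a distance from day 0 on later days is partly built in. All 14 rises had their highest day mean after day 6, and 10 of them between days 8 and 14. Stra8 reached a mean of 389.6 on day 10 and was at 65.05 on day 56, and Cldn11 was at 862.4 and 179.2 on these days. On day 56, 8 of the 14 rises were still at least 2-fold above day 0. Of the 23 falls, 20 were at least 2-fold below day 0 on day 56, and 1, Haglr, was above it. Ccl17 had a mean of 8.25 on day 56 and Mest of 23.25. Cyp11a1 was at 189.6 on day 6 and at 463.7 on day 56, against 1033 on day 0.

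**Figure D5:**
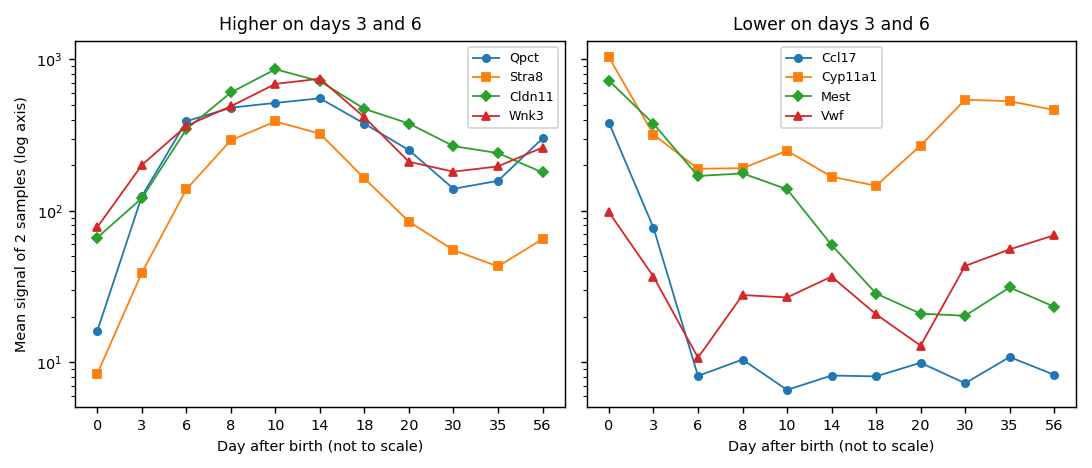
Mean signal of 2 samples (vertical log axis) on the 11 days of the series (horizontal axis, evenly spaced and not to scale) for 4 genes that rose (left) and 4 that fell (right) on days 3 and 6. Stra8 and Cldn11 peak on day 10, Ccl17 stays low from day 6 on, and Cyp11a1 is higher again after day 18.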

How the data were processed

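RNA of whole testes was measured on 66 arrays of 3 types. The deposited values are 1 signal intensity per probe set and array, scaled by the authors to a mean of 125 per the labels. The mean without the outer 2% at each end was 125.0 to 125.1 on every array. The software and detection calls are not given in the sources used here. Of 36899 probe sets, 198 were controls, 29131 named 1 gene, 724 several and 6846 none. Symbols were updated through a RefSeq table (GRCm38.p6). Probe sets that named 1 gene and reached a signal of 50 on 2 or more of 22 arrays were kept (22191), and the brightest stood for each of 13462 genes.

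Each type was fitted in limma 3.58.1 (R 4.3.3) on log2(signal + 16) with 11 day means over its 22 arrays, which gives 11 residual degrees of freedom, and eBayes with a variance trend. P-values are two-sided and adjusted by Benjamini-Hochberg over all genes within a comparison. The number of arrays sets the precision, since detection limits were not known. The main fit held no term for the sample number. The differences between sample 1 and sample 2 were correlated between days at 0.107 to 0.383 on each type, which its SE and p-values ignore. A fit with the replicate number as a block was an alternative. Results are named by rule: the 12 largest called rises and 12 largest called falls whose groups did not overlap, without clone names; up to 4 called members per list; and textbook genes. Shisa8, Miox, Haglr, Cenpf, Hells, Gli2, Krt8, Cst12, Pecam1, Kdr, Plvap, list members called only at day 6, marker genes of the milk and spermatid check and the genes so marked in the text fall outside it and were named after their values were seen. Of the textbook genes, Ret, Nanos3, Piwil4, Sohlh1, H19, Cdkn1b, Hbb-y, Hbb-bh1, Ccnb1 and Lalba were not tested. The members, lists and genes were chosen with earlier results of these data known. Promoters and half-sites were read from RefSeq windows. Alternatives were other pseudocounts, a floor, filters, normalizations, probe set rules, fits and left-out arrays.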

Additional observations from a re-analysis of the deposited data

Results flagged for a closer look

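In 82 named genes and marker sums, the 4 samples of days 3 and 6 were searched for 1 sample far from the other 3. This joins 2 days, and chance alone marks about 1 in 20 groups. It marked 8. On the type A array of day 6 sample 1, Wap read 1264.4 against 6.2 to 10 in the other 3, and Csn1s1 849.7 against 3.3 to 16. The summed signal of the 8 milk protein genes was 3118.9 there, against 68.5 to 77.3. The sum of the whole milk and mammary list on type A was 7471.7, against 4234.1 to 4558. On the same array Kitl read 946.2 against 685.2 to 717.3. On the type C array of day 6 sample 1, Star read 249.4 against 358.2 to 366.4. Pgbd5 read 258.4 in day 3 sample 1 against 43.5 to 55.9, and Prm2 on type C 7.1 in day 3 sample 2 against 3 to 3.5. The causes were not tested.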

How the results depend on the processing

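With 2 samples per day, the counts depended more on the arrays used than on the scale. For days 3 and 6 against day 0 (37 calls), leaving out 1 sample gave 19 to 144 calls, the 6-array fit 0, and leaving out the lower-actin or the higher-actin day 0 arrays 16 or 242, of which 8 and 32 were shared with the 37. The choice of these arrays was made after seeing the data. For day 3 (4 calls) the values were 0 to 31, 0, and 0 or 68, and a pseudocount of 1 gave 2, a pseudocount of 64 gave 7 and a floor of 32 gave 13. For day 6 (98 calls) they were 28 to 174, 1, and 53 or 343. For day 6 against day 3 (0 calls), leaving out 1 sample gave 0 to 42, a pseudocount of 1 gave 1, a floor 8, no filter 2, quantile normalization 6, the mean of all probe sets 2, leaving out suffixed probe sets 8 and no variance trend 3. The replicate block gave 44, 6 and 117 calls against day 0 and 10 between days 3 and 6; of the 37 genes, 36 kept their call in it. The other counts stayed within 1.5 times. With suffixed probe sets left out, Wfdc3 and Ahcyl2 were represented by other probe sets and had changes of 0 each (adjusted p = 0.999), and Elovl2 and Cytip lost their calls, with changes of 0.55 and 0.03. Of the 37 genes, 5 (Qpct, Wnk3, Cldn11, Mest and Ccl17) kept their call in every alternative but the 6-array fit, and 13 kept it whichever sample was left out. Over all alternatives the median of the differentiating spermatogonia list ran from 0.38 to 0.87, that of the steroidogenic Leydig list from -0.63 to -0.41 and that of endothelium and pericytes from -0.76 to -0.32. With a pseudocount of 1 a partly different set of genes was called for days 3 and 6 against day 0, 19 higher and 11 lower.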
